A study of Mus musculus with 6 samples.

Results

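Clock output factors are the transcription factors through which the circadian clock passes its rhythm on to other genes. A set of 7 were described here across 6 mouse livers: Dbp, Tef and Hlf, the PAR bZIP (proline and acidic amino acid-rich basic leucine zipper) activators; Nfil3, a bZIP repressor; Bhlhe40 and Bhlhe41, basic helix-loop-helix repressors; and Ciart, a repressor of the core clock. All 7 of 7 genes were found among the 17097 genes measured, on 10 probe sets that the platform annotation assigns to 1 gene only. Where a gene had more than 1, the probe set was chosen by its mean over all 6 livers, taking the brightest, and the dimmer ones served as a check. The genes were also proposed with earlier results of these arrays known, so the differences between the groups below are a description and support nothing by themselves.

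The livers came from 3 wildtype C57Bl/6 mice and 3 DeltaKlf6 mice on the same strain background, in which Klf6, a zinc-finger transcription factor, is deleted in hepatocytes only. All 6 animals had 70% of the liver removed (partial hepatectomy) and the remnant was taken 12 h later, so no unoperated liver is among the groups and the cells other than hepatocytes keep the gene. The labels used here do not give the driver of the deletion, the age of the animals or the hour of the day at which each liver was taken. Total RNA was measured on one-channel Affymetrix arrays, 1 per animal. Values are log2 expression.

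In the liver the core clock proteins CLOCK and BMAL1 bind E-box elements and drive the genes of their own repressors, the PER and CRY proteins, as well as output genes such as Dbp. The PAR bZIP proteins then activate genes through a D-box element, which Nfil3 occupies as a repressor, and in liver they are known for the daily rhythm of drug and lipid metabolism genes. Dbp, Tef, the Per genes and the Rev-erb gene Nr1d2 peak in the same part of the day, and the BMAL1 gene Arntl and Nfil3 in the opposite part.

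The libraries labelled DeltaKlf6 stood further apart from each other than the wildtype libraries did, and Klf6 itself was not lower in all of them. The library labelled DeltaKlf6 1 was above every wildtype liver on all 3 Klf6 probe sets, by 2.12, 1.82 and 2.13 over the wildtype mean from the brightest to the dimmest. DeltaKlf6 2 lay inside the wildtype range on the first pair (-0.30 and 0.05) and below it on the dimmest (-0.87). DeltaKlf6 3 lay below it on the brightest (-1.75) and dimmest (-0.86) and inside it on the other (-0.32). It is not known here whether these probes fall within the deleted exons, and a probe outside them checks nothing, so directions below are between libraries as labelled. Correlations across all genes were 0.982 to 0.983 between wildtype arrays and 0.946 to 0.964 between DeltaKlf6 arrays. Across the groups they ran from 0.964 to 0.981. The highest was DeltaKlf6 2 with wildtype 2, close to the level between wildtype arrays. The 3'-minus-5' signal of the Gapdh control, a measure of RNA quality, ranged from 4.06 to 4.43 over the wildtype arrays; the libraries labelled DeltaKlf6 1, 2 and 3 gave 3.47, 3.45 and 4.83. The same measure of the actin control was 4.86 to 5.39 in wildtype and 4.22, 3.998 and 5.05 in DeltaKlf6, so DeltaKlf6 3 stood apart on Gapdh but not on actin, and DeltaKlf6 1 and 2 were below wildtype on both. The hepatocyte gene Alb was bright in every library, at 12.52 to 13.33. Of 9 hepatocyte secreted genes measured, 1 averaged under the median gene level of 4.38 (Apob, at 3.29 to 5.26).

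The 7 factors did not move as one group. By group mean 3 were lower in DeltaKlf6 (Hlf, Tef and Dbp, the activators) and 4 were higher, and the median difference was 0.07 beside -0.01 over all genes. With single arrays left out that median ran from -0.72 (without DeltaKlf6 1) to 0.28 (without DeltaKlf6 2), and it was below 0 also without DeltaKlf6 3 (-0.41), wildtype 2 (-0.25) and wildtype 3 (-0.12). In limma's test with Benjamini-Hochberg adjustment over all genes, 0 of the 7 passed, as did 0% of the 17097 genes (adjusted p = 0.992 to 0.997 for the 7). At an unadjusted p under 0.05, Hlf and Tef were on the lower side, where 2.48% of all genes lay, and none was on the higher side, where 1.21% lay. The test without moderated variances also gave 0 genes past adjustment, with 719 at an unadjusted p under 0.05, and of the 7 it left only Hlf there. Over 17 alternatives Hlf was under that threshold in 17 and Tef in 10. Tef was not under it without wildtype 1, 2 or 3, without DeltaKlf6 2, with the mean of its probe sets, after another quantile normalization or without moderated variances. Dbp, not under it here, was so in 4 of the 17: without DeltaKlf6 1 or DeltaKlf6 3, with array weights and with the replicate number as a block. The groups did not overlap for 2 of the 7, again Hlf and Tef, both lower; 5.91% of all genes had non-overlapping groups on that side and 3.41% on the higher side. With 3 animals per group an exact two-sided permutation test cannot go below 0.1.

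**Figure D1:**
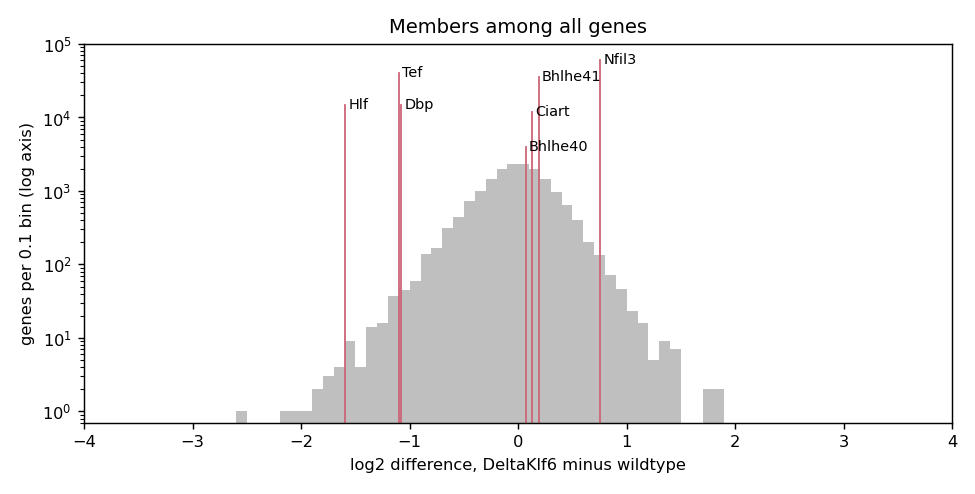
Number of genes (log axis) by log2 difference, DeltaKlf6 minus wildtype, in bins 0.1 wide, over 17097 genes; lines of arbitrary height mark the 7 clock output factors. Hlf, Tef and Dbp sit at -1.60, -1.10 and -1.08, where 0.807% of genes lie at -1 or lower, and the other members lie between 0.07 and 0.75.

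Hlf, the hepatic leukaemia factor, was the member with the largest difference. It was at 6.29, 6.00 and 6.29 in wildtype 1, 2 and 3 and at 4.54, 5.22 and 4.03 in the libraries labelled DeltaKlf6 1, 2 and 3. Every DeltaKlf6 value thus lay below every wildtype value, with wildtype nearly level. The means were 6.19 ± 0.17 and 4.60 ± 0.60 (SD, n = 3 each), a log2 difference of -1.60 (SE 0.32), or 3.03-fold lower. Within single libraries the difference from the wildtype mean was -1.65, -0.97 and -2.17. The shares of genes that lay as far down in the same libraries were 0.983%, 1.35% and 0.31%.

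Tef, the thyrotroph embryonic factor, was at 9.06, 8.75 and 8.58 in the wildtype livers. In the libraries labelled DeltaKlf6 1, 2 and 3 it was at 7.96, 6.65 and 8.49. The groups did not overlap, but DeltaKlf6 3 lay only just under the lowest wildtype liver, and most of the difference came from DeltaKlf6 2. The means were 8.80 ± 0.24 and 7.70 ± 0.95 (difference -1.10, SE 0.44), and without DeltaKlf6 2 the difference was -0.57.

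Dbp, the albumin D-box binding protein and the most strongly rhythmic of the PAR bZIP genes, was at 6.38, 6.02 and 5.68 in wildtype. It was at 5.68, 3.62 and 5.54 in the libraries labelled DeltaKlf6 1, 2 and 3. The low value belonged to DeltaKlf6 2 alone, since DeltaKlf6 1 lay inside the wildtype range and DeltaKlf6 3 close under it. The means were 6.03 ± 0.35 and 4.95 ± 1.15 (difference -1.08, SE 0.53), and the difference was -0.41 without DeltaKlf6 2. In that library Dbp and Tef differed from the wildtype mean by -2.40 and -2.15, where 0.0994% and 0.14% of genes lay as low. Since these are whole livers, fewer cells expressing a gene and less RNA per cell cannot be told apart for any of these values.

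**Figure D2:**
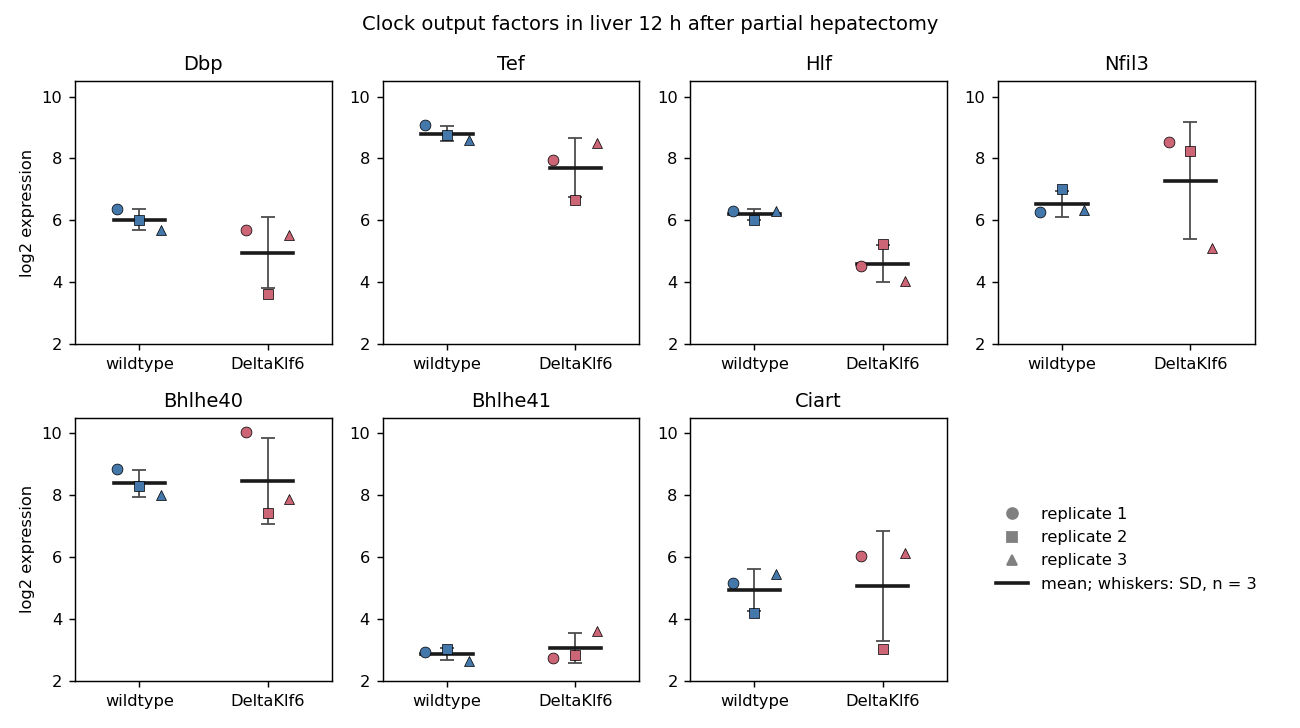
Log2 expression of the 7 factors in 3 wildtype and 3 DeltaKlf6 livers; each symbol is 1 liver, thick lines are means and whiskers SD. The groups separate only for Hlf and Tef, and the DeltaKlf6 values spread widely for Nfil3 (5.10 to 8.52), Ciart (3.02 to 6.14) and Bhlhe40 (7.43 to 10.03).

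Nfil3, which represses through the same D-box, had opposite signs within the DeltaKlf6 group. It was at 6.26, 6.998 and 6.33 in wildtype and at 8.52, 8.23 and 5.10 in the libraries labelled DeltaKlf6 1, 2 and 3. DeltaKlf6 1 and 2 were above every wildtype liver and DeltaKlf6 3 was below every one, with differences from the wildtype mean of 1.99, 1.70 and -1.43. The group means of 6.53 ± 0.41 and 7.28 ± 1.89 therefore differed by 0.75 with an SE of 0.82. Without DeltaKlf6 3 the difference was 1.84 (SE 0.29, limma adjusted p = 0.291) and the groups did not overlap, as on the higher side for 12.6% of genes; without DeltaKlf6 1 it was 0.14. Only 0.374% of genes had a larger SD among the DeltaKlf6 libraries than Nfil3.

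Bhlhe40 (DEC1), an E-box repressor that also responds to hypoxia and feeding, was high in 1 library. It was at 8.84, 8.29 and 8.002 in wildtype and at 10.03, 7.43 and 7.89 in the libraries labelled DeltaKlf6 1, 2 and 3. DeltaKlf6 1 lay above the wildtype range, and the other DeltaKlf6 libraries lay below it. The group difference was 0.07 (SE 0.62), and it turned to -0.72 (SE 0.32) without DeltaKlf6 1, when the groups did not overlap, as on the lower side for 10.8% of genes. Its relative Bhlhe41 (DEC2) was at 2.64 to 3.03 in wildtype and 2.73 to 3.61 in DeltaKlf6, under the median gene level of 4.38, with a difference of 0.19 (SE 0.29); detection was not assessed at this level.

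Ciart (Chrono), which represses CLOCK and BMAL1, was at 5.18, 4.18 and 5.44 in wildtype. In the libraries labelled DeltaKlf6 1, 2 and 3 it was at 6.02, 3.02 and 6.14. DeltaKlf6 1 and 3 were thus above every wildtype liver and DeltaKlf6 2 below every one. The means were 4.93 ± 0.67 and 5.06 ± 1.77 (difference 0.13, SE 0.80). Without DeltaKlf6 2 the difference was 1.15 (SE 0.39, limma adjusted p = 0.666) without overlap, as on the higher side for 8.58% of genes, and without DeltaKlf6 3 it was -0.41. Wildtype 2 was also the lowest wildtype liver, and only 3.00% of genes had a larger SD in wildtype than Ciart.

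All 7 factors had a larger SD in DeltaKlf6 than in wildtype, as did 68.1% of all genes. The spread was widest for Nfil3, Ciart and Bhlhe40, at SDs of 1.89, 1.77 and 1.39, and the median gene had 0.35. Hlf, by contrast, had an SD of 0.60, which 22.9% of genes exceeded. On their brightest probe sets the 3 PAR bZIP genes were below the wildtype mean in every DeltaKlf6 library, and none of the other 4 was. This held for 17.7% of all genes. On the dimmer probe sets Tef was 0.31 above that mean in DeltaKlf6 3. Bhlhe41 was below it in all 3 libraries there (-0.29, -0.24 and -0.33), as was Hlf.

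A pair of probe sets measured each of Hlf, Tef and Bhlhe41, and they did not agree in size. The dimmer Hlf probe set was at 5.44, 5.67 and 5.73 in wildtype and at 3.27, 5.07 and 5.28 in the libraries labelled DeltaKlf6 1, 2 and 3, again without overlap (difference -1.08, SE 0.49). The order of the DeltaKlf6 libraries differed, however: DeltaKlf6 3 differed from the wildtype mean by -2.17 on the brighter probe set and by -0.33 on the dimmer one. DeltaKlf6 1 was low on both. For Tef the dimmer probe set, of the type shared between transcripts, was at 3.27 to 4.12 in wildtype and 3.12 to 4.07 in DeltaKlf6 (difference -0.25, SE 0.33), under the median gene level. The 2 Bhlhe41 probe sets differed in sign, at 0.19 and -0.28. The DeltaKlf6 3 library had the largest Gapdh 3'-minus-5' signal, 4.83, while its actin value, 5.05, lay inside the wildtype range; the part of RNA quality in the disagreement over Hlf was not tested.

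**Figure D3:**
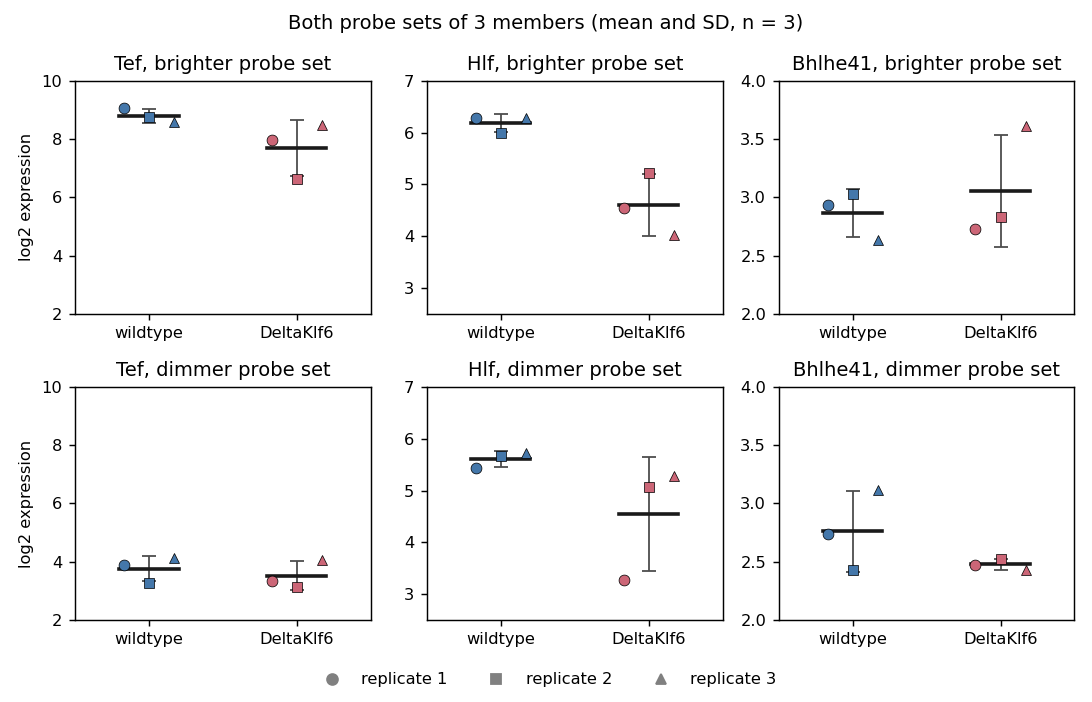
Log2 expression on both probe sets of Tef, Hlf and Bhlhe41 (top row brighter, bottom row dimmer) in 3 wildtype and 3 DeltaKlf6 livers, with means and SD. Hlf separates the groups on both probe sets, but DeltaKlf6 3 is at 4.03 on one and 5.28 on the other; Tef separates them only on the brighter one.

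Read by library, the members far from wildtype differed in part. In the library labelled DeltaKlf6 2, Dbp (-2.40), Tef (-2.15), Ciart (-1.91), Hlf (-0.97) and Bhlhe40 (-0.95) were low and Nfil3 (1.70) was high. In DeltaKlf6 1, Hlf (-1.65) and Tef (-0.84) were low while Nfil3 (1.99), Bhlhe40 (1.65) and Ciart (1.09) were high. In DeltaKlf6 3, Hlf (-2.17) and Nfil3 (-1.43) were low and Ciart (1.205) was high, with Dbp (-0.49) and Tef (-0.31) close to wildtype. Of the 7, Hlf, Tef and Dbp kept 1 sign in all 3 libraries on their brightest probe sets.

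Of 15 core clock genes, 8 deviated most from wildtype in DeltaKlf6 2, 3 in DeltaKlf6 1 (Cry2, Csnk1d and Fbxl21) and 4 in DeltaKlf6 3 (Arntl2, Rora, Csnk1e and Btrc). The shares of all genes that did so were not computed, and the 8 include Cry1, at only 0.29 in DeltaKlf6 2. In DeltaKlf6 2, Arntl, encoding BMAL1, was 3.11 above the wildtype mean and its partner Npas2 was 1.33 above, while Per1, Per2 and Per3, the period repressors, were at -1.81, -2.42 and -2.68. Nr1d2, encoding the repressor REV-ERB beta, was at -1.98. Arntl was at 3.98, 4.26 and 4.53 in wildtype and 5.12, 7.37 and 4.08 in DeltaKlf6 1, 2 and 3, so DeltaKlf6 3 lay inside the wildtype range. Per3 was at 6.86, 5.11 and 6.12 in wildtype and 4.05, 3.35 and 5.44 in DeltaKlf6, a group difference of -1.76 (SE 0.60), and Per2 differed by -1.32 (SE 0.51). Of 15 measured core clock genes 7 were higher and 8 lower by group mean, 0 passed the test, and the median difference was -0.01 beside -0.01 over all genes. The other members were Clock (0.15), Arntl2 (0.19), Per1 (-0.46), Cry1 (0.06), Cry2 (0.38), Rora (-0.05), Csnk1d (-0.33), Csnk1e (-0.05), Fbxl21 (-0.01), Btrc (0.12), Arntl (1.27), Npas2 (0.37) and Nr1d2 (-0.88).

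**Figure D4:**
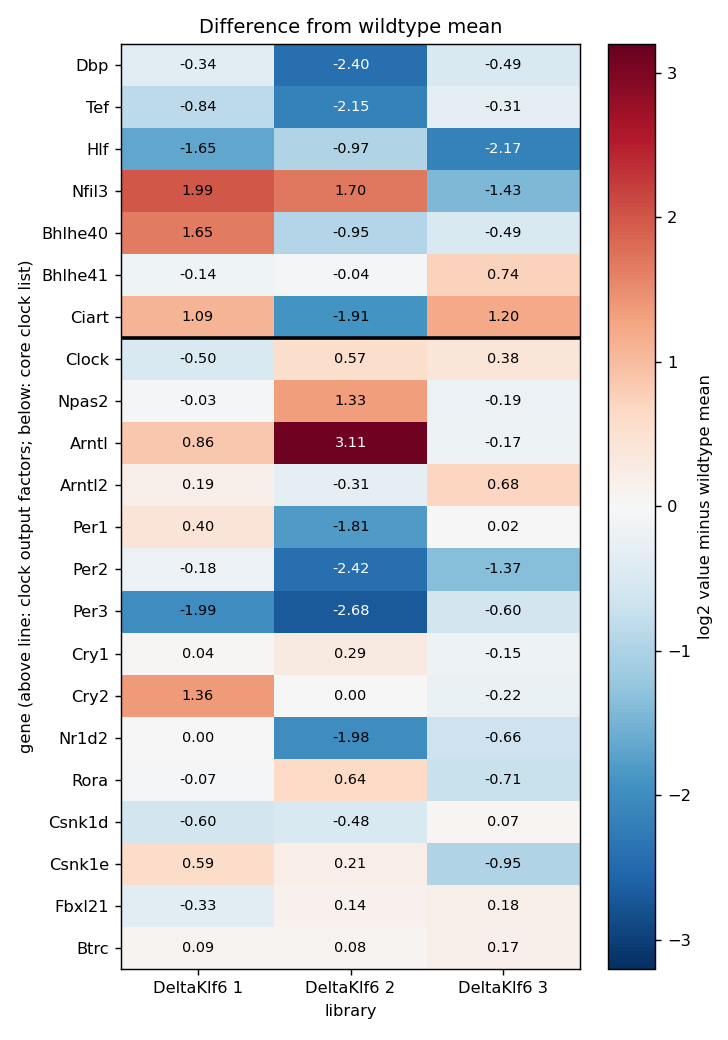
Log2 value minus the wildtype mean in each library labelled DeltaKlf6, for the 7 clock output factors (above the line) and 15 core clock genes (below it). Blue cells are below and red cells above wildtype; DeltaKlf6 2 pairs low Dbp (-2.40), Tef (-2.15), Per2 (-2.42) and Per3 (-2.68) with high Arntl (3.11), and Hlf is blue in all 3 libraries.

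Profiles over the 6 livers were compared by their root mean square distance after centring each gene on its own mean, as a description across genes on the same 6 arrays. Of 17096 other genes, the nearest to Dbp was Nr1d2 (distance 0.24), the next was Tef (0.25) and the third was Ccn2, a matricellular growth factor gene (0.34). Per2 ranked 4 and Per1 ranked 13 on the same scale. The nearest to Tef was Dbp, followed by Pex11a, a peroxisome division gene and PPARA target (0.27), and, after a placeholder symbol, Nceh1 (0.31). Dbp's own spread over the arrays was 0.88, so these distances are small beside it. Much of that spread came from DeltaKlf6 2, where Dbp was at 3.62, against 5.54 to 6.38 in the other livers. Nr1d2, Tef and Ccn2 were also lowest there, at 6.98, 6.65 and 5.51. The distances were not computed without that library.

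Hlf had other neighbours. The nearest were Amot, a Hippo pathway scaffold gene (0.26), Peg3, an imprinted gene (0.26), and Rasal2 (0.30), while Tef ranked 9567 and Dbp 13281 of 17096. These distances used only the brighter Hlf probe set. On the dimmer one DeltaKlf6 1 was lowest, at -2.34 from the wildtype mean, and DeltaKlf6 3 was at -0.33. Nfil3 lay nearest to Akr1d1, the bile acid 5-beta-reductase gene (0.24), Ndufc2 (0.24) and Dop1b (0.25), with Arntl at rank 1482 and Dbp at 16963. For Bhlhe40 the nearest were Cd300lf, a myeloid receptor gene (0.19), Cblb (0.21) and Gpalpp1 (0.25). For Ciart they were Enc1 (0.29), Coq8b (0.32) and Nrg4 (0.45), with Dbp at rank 388. Bhlhe41 lay nearest to a placeholder symbol and to Epha8, Chga and Fndc10 (0.04 to 0.06), genes between 2.43 and 4.26 on these arrays.

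**Figure D5:**
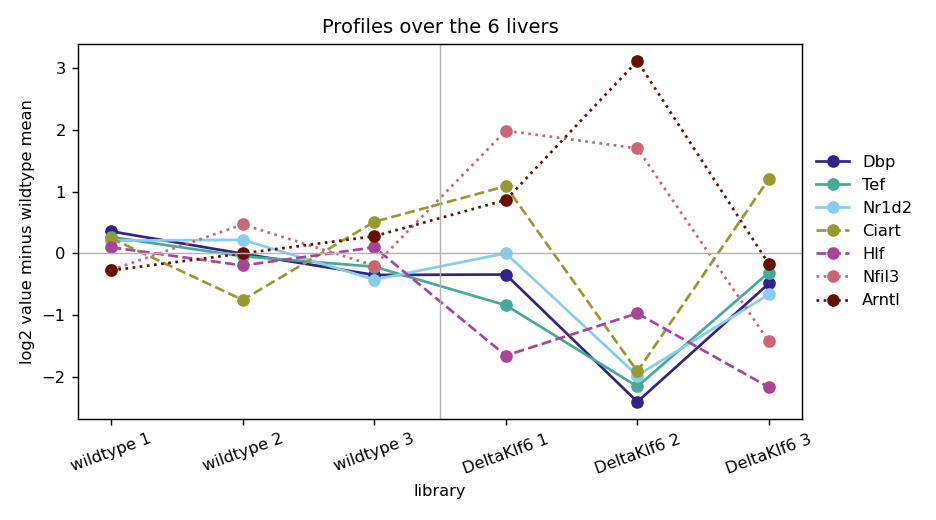
Log2 value minus the wildtype mean in each of the 6 livers for 5 clock output factors and the core clock genes Nr1d2 and Arntl; lines join the points of a gene only to guide the eye. Dbp, Tef and Nr1d2 run together and are lowest in DeltaKlf6 2, where Arntl is highest. Hlf, on its brighter probe set, is lowest in DeltaKlf6 3.

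The promoters of the factors were searched for clock elements, as a description that did not use the expression values. Windows of 300 bases, 250 before to 50 after an annotated start, were taken from RefSeq (GRCm38.p6); 6 of the 7 genes matched, with 7 windows, and Bhlhe40 did not. The motifs were the E-box CACGTG, the related CACGTT, and the D-boxes TTATGTAA and TTACGTAA, on both strands; CACGTG and TTACGTAA read the same on both, and no matches overlapped. Ciart held CACGTG 3 times, at 116, 58 and 44 bases before the start, where 7.15% of 32851 windows hold it at least once and 0.0883% at least 3 times. Both Tef windows held it once, 127 and 138 bases before their starts, and Bhlhe41 held it once, 153 bases before. The windows of Dbp, Hlf and Nfil3 did not hold it, and no window of the 7 held CACGTT or either D-box, which 4.68%, 0.938% and 0.119% of all windows hold. The windows of the factors were 60.3% to 81.7% GC, beside a median of 52.7% over all windows, and the shares were not matched for this. Sequence outside the windows was not searched, so a gene without a match here may hold one elsewhere. A match is a description of letters, not of binding. The 3 windows of Ciart and Tef are shown 5′ to 3′ on the strand of the gene, with CACGTG in capitals; they lie on chr3:95882179-95882478 (minus strand), chr15:81802423-81802722 and chr15:81811164-81811463 (both plus strand).
Ciart: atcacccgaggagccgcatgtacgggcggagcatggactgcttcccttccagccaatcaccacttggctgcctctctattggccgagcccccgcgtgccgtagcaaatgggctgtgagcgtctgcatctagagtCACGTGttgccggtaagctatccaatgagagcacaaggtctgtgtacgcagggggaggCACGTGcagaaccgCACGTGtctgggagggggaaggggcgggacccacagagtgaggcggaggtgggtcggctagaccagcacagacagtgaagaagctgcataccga
Tef, upstream start: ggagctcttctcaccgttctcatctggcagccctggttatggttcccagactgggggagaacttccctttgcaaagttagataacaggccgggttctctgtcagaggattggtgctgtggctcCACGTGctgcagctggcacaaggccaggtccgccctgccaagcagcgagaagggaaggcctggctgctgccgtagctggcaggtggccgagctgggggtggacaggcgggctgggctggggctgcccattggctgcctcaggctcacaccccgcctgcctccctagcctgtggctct
Tef, downstream start: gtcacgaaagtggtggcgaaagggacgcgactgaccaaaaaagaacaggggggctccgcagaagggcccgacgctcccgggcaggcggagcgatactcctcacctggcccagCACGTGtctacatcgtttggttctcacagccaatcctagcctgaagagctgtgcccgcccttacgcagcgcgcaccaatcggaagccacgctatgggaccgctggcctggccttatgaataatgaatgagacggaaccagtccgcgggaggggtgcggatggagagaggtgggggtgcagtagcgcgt

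Genes described as PAR bZIP or D-box targets did not follow the activators as a list. Of 10 measured, 5 were higher and 5 lower by group mean, 0 passed the test, and the median difference was -0.17 beside -0.01 over all genes. That median was 0.013 without wildtype 2 and 0.049 with the mean of each gene's probe sets, so its sign is not settled; it was -0.0014, -0.027 and -0.10 without DeltaKlf6 3, DeltaKlf6 1 and wildtype 3, and -0.37 when probe sets shared between transcripts were left out. Ppara, the fatty acid-sensing nuclear receptor, was at 9.27, 8.98 and 8.90 in wildtype and 6.79, 7.60 and 7.93 in the libraries labelled DeltaKlf6 1, 2 and 3 (difference -1.61, SE 0.31), without overlap. Nr1i3, encoding the xenobiotic receptor CAR, ranged from 7.66 to 8.49 in wildtype; it was at 4.82 in the library labelled DeltaKlf6 1, and DeltaKlf6 2 and 3 gave 8.52 and 7.89. Alas1, the first enzyme of haem synthesis, differed by 0.08 (SE 0.31). Cyp7a1, the rate-limiting enzyme of bile acid synthesis, was at 2.83, 8.04 and 7.59 within wildtype, so that its difference of -0.93 had an SE of 1.68. Fgf21, a fasting hormone gene that Nfil3 represses, differed by -1.22 (SE 0.56), but the groups overlapped. It was at 5.54, 3.32 and 5.47 in wildtype 1, 2 and 3 and at 3.71, 3.68 and 3.28 in DeltaKlf6. The drug efflux pump gene Abcb1a differed by 0.79 (SE 0.36), also with overlap.

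Other rhythmic or systemically driven genes were as mixed. Of 10 rhythmic liver output genes 5 were higher and 5 lower (median -0.13, 0 past the test). The sign of that median turned without wildtype 2 (0.059) and without the shared probe sets (0.10). It was -0.34, -0.29 and -0.082 without wildtype 3, DeltaKlf6 1 and DeltaKlf6 2, and -0.36 with dim genes left out. Usp2, a deubiquitinase gene driven by the clock, was at 7.77, 7.40 and 6.85 in wildtype and 5.35, 4.77 and 7.80 in DeltaKlf6 1, 2 and 3 (difference -1.37, SE 0.71). Coq10b differed by -0.52 (SE 0.24) without overlap, and Elovl3, a fatty acid elongase gene, by 0.999 (SE 0.66), with 11.49 in the library labelled DeltaKlf6 2. Lpin1, named after its values were seen, was at 5.53 in that library and between 8.37 and 9.69 in the other 5. Of 8 glucocorticoid-responsive genes 2 were higher and 6 lower (median -0.14), with 0 past the test. Tat was at 0.64 (SE 0.35), Fkbp5 at -0.61 (SE 0.59) and Pck1 at -0.35 (SE 0.34). The Pck1 probe set read 2.41 to 3.72 over the 6 arrays, under the median gene level of 4.38, and detection was not assessed. The median of this list ran from -0.31 without DeltaKlf6 3 to -0.0066 without DeltaKlf6 2. Of 8 hypoxia-responsive genes 3 were higher and 5 lower (median -0.32), with Bnip3 at -0.57 (SE 0.24), Ndrg1 at 0.96 (SE 0.48) and Pfkfb3 at -0.53 (SE 0.28), 0 past the test; the median was 0.047 without DeltaKlf6 1 and -0.12 without wildtype 3.

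Cell type markers differed between the same libraries. Of 9 macrophage markers 7 were higher and 2 lower; their mean level was 7.08 to 7.49 in wildtype and 7.25 to 8.09 in DeltaKlf6, highest in the library labelled DeltaKlf6 2, at 0.77 above wildtype. Of 9 hepatocyte secreted genes 7 were higher, with mean levels of 11.16 to 11.34 in wildtype and 10.92 to 11.74 in DeltaKlf6, lowest in DeltaKlf6 3. Of 8 endothelial markers 3 were higher (6.40 to 6.70 and 6.13 to 6.62) and of 6 stellate and fibroblast markers 2 (6.16 to 6.58 and 5.66 to 6.93). Of 4 cholangiocyte markers 3 were higher (2.91 to 3.66 and 3.199 to 3.61), of 4 neutrophil markers 3 (5.14 to 5.92 and 5.14 to 6.11) and of 2 erythroid markers 2 (9.55 to 9.68 and 9.74 to 10.01). Lymphocyte markers (3 of 6 higher, 3.58 to 3.76 and 3.52 to 3.70) and natural killer markers (3 of 6 higher, 2.89 to 3.01 and 2.90 to 2.97) had every measured member under the median gene level. The same held for the 4 cholangiocyte markers. No marker passed the test, and the part of cell composition in the values of the 7 factors was not tested.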

How the data were processed

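Liver RNA was measured in 3 wildtype and 3 DeltaKlf6 mice 12 h after removal of 70% of the liver, 1 array per animal, grouped by the labels. Per the submitters' processing notes, the authors ran RMA in Expression Console 1.2.1 (Affymetrix), and the deposited table holds its log2 output; RMA corrects background, quantile-normalizes and summarises each probe set. The log base was inferred from the highest value, 13.9, since a 16-bit scanner cannot exceed 16 on a log2 scale. Precision is limited by the number of arrays. The authors' genome build is not given in the sources used here.

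Of 45141 probe sets, 28898 had 1 gene symbol in the platform annotation, 551 had several and 15692 had none here. The first set gave 17097 genes, each read from its probe set with the highest mean. The groups were compared in limma 3.58.1 under R 4.3.3 (functions lmFit and eBayes, two-sided, Benjamini-Hochberg adjustment over all genes, threshold 0.05), and the calculation was tested on simulated data. Quoted SEs are moderated by limma. The factors and gene lists were chosen with earlier results of these data known. All 7 factors, Klf6 and every measured core clock gene are named, up to 3 genes of smallest unadjusted p per other pathway list with Ppara, Alas1, Nr1i3 and Cyp7a1, and the 3 nearest profiles per factor; some list genes are not reported here. Alternatives were other probe set choices, normalizations, variance models, array weights, a replicate block and each array left out.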

Additional observations from a re-analysis of the deposited data

Results flagged for a closer look

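Control probe sets outside the comparison of genes read higher in 1 library than in any wildtype array. These hybridization controls, spiked into every sample at fixed amounts, averaged 11.02 in the library labelled DeltaKlf6 3, against at most 10.13 in wildtype. In DeltaKlf6 1 and 2 they averaged 9.66 each, under the lowest wildtype array at 9.92. The upper quartile of gene levels was 6.47 in DeltaKlf6 3, against 6.82 to 6.97 in the other arrays. The array weight that limma estimated for it was 0.38, against 0.86 to 1.67 for the others. In DeltaKlf6 3 the 2 Hlf probe sets disagreed most and Nfil3 was low.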

How the results depend on the processing

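Under all 17 alternatives 0 genes passed adjustment, the replicate block included. Hlf, Tef, Dbp and Nfil3 kept their sign in all 17, with differences from -1.91 to -1.31, -1.50 to -0.57, -1.45 to -0.41 and 0.14 to 1.84. The number of genes at an unadjusted p under 0.05, 631 in all, ran from 331 with dim genes left out to 1546 without DeltaKlf6 3. The 331 came from testing only genes at or above the median level, so as a count it is not comparable with the others.

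Signs turned for the members near 0. With each array left out the Bhlhe40 difference ran from -0.72 to 0.58, below 0 without wildtype 3 (-0.12) and DeltaKlf6 1. Bhlhe41 went to -0.049 with the mean of its probe sets and ran from -0.091 (without DeltaKlf6 3) to 0.35, and was not tested with dim genes left out. Ciart went to -0.24 with array weights and ran from -0.41 to 1.15 with an array left out, below 0 without wildtype 2, DeltaKlf6 1 or DeltaKlf6 3. The brightest Klf6 probe set went to -0.068 after another quantile normalization and ran from -1.03 to 0.91, below 0 without wildtype 2 or DeltaKlf6 1. The median over the 7 factors and those of the core clock, D-box, rhythmic output and hypoxia lists also changed sign with some array left out; the medians of the 7 and of the hypoxia and glucocorticoid lists were recomputed as an alternative chosen after seeing the data. The cause was not tested beyond the array left out.

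With each array left out in turn, an alternative chosen after seeing the data, 2 to 4 of the 7 factors had non-overlapping groups on the lower side and 0 to 1 on the higher side. The 4 were Dbp, Tef, Hlf and Bhlhe40 without DeltaKlf6 1, when 10.8% of genes did so. On the higher side Ciart stood without DeltaKlf6 2 (8.58% of genes) and Nfil3 without DeltaKlf6 3 (12.6%).

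With the replicate number as a block the Hlf difference was -1.60 (SE 0.33, limma adjusted p = 0.981). Deviations of same-numbered arrays from their group means correlated across genes at -0.0049, 0.26 and 0.084 for numbers 1, 2 and 3. Those of arrays with other numbers correlated at -0.17 to 0.086. The labels do not say whether the numbers pair the samples, and this was not tested further. The block changed no adjusted call; at an unadjusted p under 0.05 it added Dbp to Hlf and Tef.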
